A study of Mus musculus with 4 samples.

Results

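Ribosomal protein genes are among the most abundantly transcribed genes of lymphocytes, and the mouse genome carries many copies of their messenger RNAs that were reverse-transcribed and inserted elsewhere. Such a processed pseudogene has lost the introns of its parent, can be nearly identical to it over its whole length, and is transcribed in some cases. A short read from the shared stretch can therefore match both loci, and how counting software divides such reads depends on the few bases that differ and on the annotation it uses.

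The 4 genes described here are *Gm10076*, *Gm10073*, *Gm10263* and *Wdr89*, out of 27998 genes counted. They were selected on differences in their levels between the libraries of these same data, so those differences are given as a description, with no test. *Gm10076*, *Gm10073* and *Gm10263* are listed as pseudogenes in RefSeq (*Gm10076* as a long noncoding RNA in GENCODE M39), and *Wdr89* is a protein-coding gene for a WD-repeat protein that carries a ribosomal protein copy in its transcript.

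The data are single-cell RNA sequencing counts of enriched CD3+ T cells from the blood of C57BL/6 mice that were 6 to 8 weeks old at the start and bore MC-38 tumors, a mouse colon carcinoma line injected under the skin. Blood was taken at day 18. The study compared mice left untreated with mice given a blocking antibody to PD-L1 (anti-PD-L1), an agonistic antibody to OX40 together with the TLR9 ligand CpG (anti-OX40/CpG, whose label names only OX40), or all of these agents (PDOX). Each group has 1 library from 1 blood sample, so mouse, library and treatment cannot be told apart, and no p-value is given between libraries. Whether each library came from 1 mouse was not stated per sample.

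Counts are unique molecular identifiers (UMIs), each standing for 1 captured transcript. The untreated library held 2392650 UMIs in 862 cells, the anti-PD-L1 library 4969885 in 1451, the anti-OX40/CpG library 4931178 in 1583 and the PDOX library 4121932 in 1538. Values for the 4 libraries are given in this order below, unless named. Cells with 200 or more detected genes, not counting mitochondrial, ribosomal protein and hemoglobin genes, were kept, which left 784, 1446, 1559 and 1510. No doublet caller was run. Doublets of different cell types were left out only in so far as each gate bars or limits the markers of the others, and an alternative leaves out the 5% of cells with most UMIs. Of the cell barcodes, 16 occurred in more than 1 library. The cytosolic ribosomal protein genes (86 symbols beginning with *Rpl* or *Rps*) took 37.5% of the UMIs in the untreated library, 40.9% in anti-PD-L1, 42.6% in anti-OX40/CpG and 34.2% in PDOX. Hemoglobin genes took 7.99%, 0.344%, 1.51% and 1.70%.

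Cells were assigned to gates by the summed UMIs of a few marker genes. The T gate (*Cd3d*, *Cd3e*, *Cd3g*) held 514, 1044, 1261 and 1091 cells. The natural killer (NK) gate (*Ncr1*, *Klrb1c*, *Klre1*, *Klra8*) held 15, 5, 33 and 18 cells, the B gate (*Cd79a*, *Cd79b*, *Ms4a1*) 31, 55, 7 and 34, and the monocyte gate (*Csf1r*, *Ms4a6c*, *Clec4a1*, *Clec4a3*) 7, 31, 10 and 32. Genes not used for gating were highest in their own gate for *Lck* and *Lat* in T cells, *Cd74* in B cells, *Lyz2*, *Cst3*, *Ctss* and *Fcer1g* in monocytes, and *Gzma*, *Prf1* and *Klrd1* in NK cells. The exception among these check genes was *Tyrobp*, with 56.6 UMIs per 10000 UMIs in the NK gate and 65.3 in the monocyte gate.

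Each of the 4 genes was aligned with blastn to all transcripts of ribosomal protein genes in GENCODE M39, and the gene of the highest-scoring alignment was taken as its parent. *Gm10076* (ENSMUSG00000060143, mm10 chr14:105681826-105682219) matched *Rpl41* with 98.97% identity over 389 bases, a stretch with 4 mismatches that is part of a transcript of 1096 bases, longer than the 394 bases of the RefSeq gene. *Gm10073* (ENSMUSG00000060019, chr8:106572965-106573432) matched *Rplp1* with 98.54% identity over 342 bases and 5 mismatches. *Gm10263* (ENSMUSG00000066407, chr13:73317825-73318145) matched *Rps28* with 99% identity over 300 bases and 3 mismatches. *Wdr89* (ENSMUSG00000045690, chr12:75630594-75669537) matched *Rplp2* with 99.33% identity over 447 bases and 3 mismatches, and the whole match lies in the 3′ untranslated region of *Wdr89*. The longest stretch without a mismatch was 150 bases for *Gm10076*, 191 for *Gm10073*, 172 for *Gm10263* and 225 for *Wdr89*. The 4 genes lie on 4 chromosomes and share no parent.

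Within the coding sequence of the parent, *Gm10073* has 5 mismatches in 342 aligned bases and *Wdr89* has 2 in 348. The pairs with the fewest are shown here. Over the 78 coding bases of *Rpl41* the *Gm10076* transcript is identical, so a read inside them cannot be assigned from its sequence:

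Gm10076: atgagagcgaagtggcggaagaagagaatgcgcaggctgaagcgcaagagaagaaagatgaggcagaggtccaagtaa

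*Gm10263* differs from the coding sequence of *Rps28* at 1 of 210 bases, and capitals mark the base that differs. Positions are counted from 1 at the 5′ end of the printed stretch, with the base of the parent before the position and the base of the member after it, which gives G163A:

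Gm10263: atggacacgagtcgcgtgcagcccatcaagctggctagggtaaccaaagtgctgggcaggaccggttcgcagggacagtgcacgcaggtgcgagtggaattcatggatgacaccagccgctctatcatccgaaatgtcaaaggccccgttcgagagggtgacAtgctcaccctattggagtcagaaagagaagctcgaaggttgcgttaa
Rps28: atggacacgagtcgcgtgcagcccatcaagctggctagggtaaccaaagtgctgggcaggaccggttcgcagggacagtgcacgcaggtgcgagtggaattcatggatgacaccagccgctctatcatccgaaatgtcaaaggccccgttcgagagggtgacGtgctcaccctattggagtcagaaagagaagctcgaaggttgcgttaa

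The level of a gene in a gate is its UMIs summed over the gate's cells per 10000 UMIs of all genes other than mitochondrial, ribosomal protein, hemoglobin and these 4 genes. Intervals are exact 95% intervals (Poisson for levels, conditional binomial for ratios, Clopper-Pearson for shares) and cover counting error only. In T cells the level of *Gm10076* was 5.61 in untreated (5.09 to 6.16), 8.06 in anti-PD-L1 (7.65 to 8.48), 41.2 in anti-OX40/CpG (40.3 to 42.1) and 1.33 in PDOX (1.17 to 1.51). No pair of these intervals overlapped. The level of *Gm10073* followed the same order, at 6.72 in untreated (6.16 to 7.32), 10.9 in anti-PD-L1 (10.5 to 11.4), 20.2 in anti-OX40/CpG (19.6 to 20.8) and 2.73 in PDOX (2.49 to 2.98), again with no overlap.

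*Gm10263* was the rarest, with 30, 71, 521 and 49 UMIs in the T cells of the 4 libraries. Its level was 0.385 (0.260 to 0.549), 0.389 (0.303 to 0.490), 2.48 (2.27 to 2.70) and 0.272 (0.201 to 0.360). The anti-OX40/CpG library stood apart above, and the intervals of the other 3 overlapped. The level of *Wdr89* was 27.2 (26.1 to 28.4), 32.3 (31.5 to 33.1), 63.2 (62.2 to 64.3) and 26.6 (25.8 to 27.4). Here the untreated and PDOX intervals overlapped.

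As ratios to untreated T cells, the anti-OX40/CpG levels were 7.35 for *Gm10076* (6.67 to 8.11), 3.0 for *Gm10073* (2.74 to 3.29), 6.44 for *Gm10263* (4.45 to 9.64) and 2.32 for *Wdr89* (2.22 to 2.43). All 4 passed a ratio of 1.5, as did 7.61% of the 6546 genes with at least 50 UMIs in the pair of libraries. The genes were chosen on such differences, so nothing is read from that count. The PDOX ratios were 0.238 for *Gm10076* (0.202 to 0.279), 0.406 for *Gm10073* (0.358 to 0.460), 0.707 for *Gm10263* (0.440 to 1.15) and 0.977 for *Wdr89* (0.928 to 1.03). The first 2 lay below 1/1.5, where 11.6% of 6168 genes lay. The anti-PD-L1 ratios were 1.44, 1.63, 1.01 and 1.19 in that order of genes, with only *Gm10073* above 1.5 against 4.73% of 6256 genes. The 3 sets of ratios share the untreated library.

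The 4 genes thus differed most from each other in PDOX, where *Gm10076* and *Gm10073* were below untreated and the interval of *Wdr89* included 1. The value of *Wdr89* in PDOX depended on the denominator, at 1.12 per all UMIs and 1.34 per ribosomal protein UMIs, and it was above untreated within T-cell states, as given below. Among the 6546 genes compared, 24 had a higher anti-OX40/CpG ratio than *Gm10076*, 27 than *Gm10263*, 64 than *Gm10073* and 120 than *Wdr89*. Without the barcodes found in more than 1 library, an alternative chosen after seeing the data, the anti-OX40/CpG ratios were 7.33 for *Gm10076*, 2.99 for *Gm10073*, 6.36 for *Gm10263* and 2.32 for *Wdr89*, and the PDOX ratios 0.239, 0.407, 0.712 and 0.976.

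**Figure D1:**
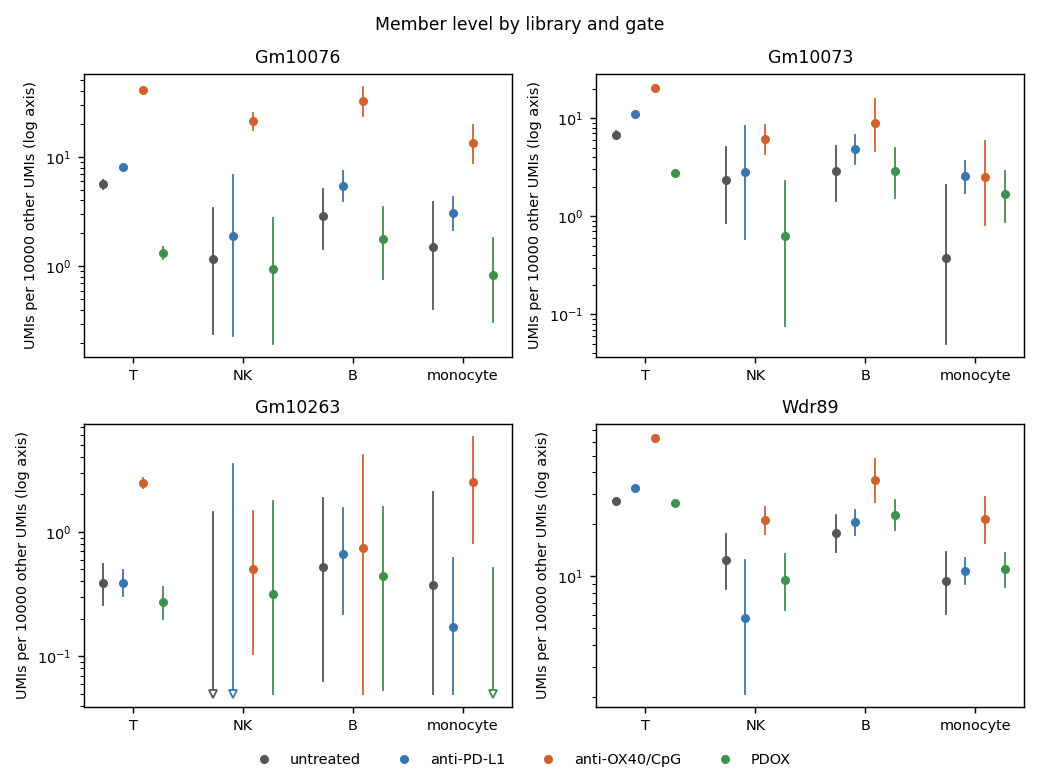
Level of each of the 4 genes (UMIs per 10000 UMIs of other genes, log axis) in the T, NK, B and monocyte gates, with 1 point per library and exact Poisson 95% intervals as lines; open triangles mark gates with 0 UMIs, and lines that run below the axis end at its lower edge. The anti-OX40/CpG library is the highest in 15 of the 16 combinations of gene and gate, the exception being *Gm10073* in monocytes.

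The next question is whether the differences between libraries were alike in the other gates. *Gm10076* was at 1.17, 1.90, 21.1 and 0.948 UMIs per 10000 in the NK cells of the 4 libraries, from 3, 2, 125 and 3 UMIs. In B cells it was at 2.87, 5.48, 32.5 and 1.76, and in monocytes at 1.5, 3.09, 13.5 and 0.836. The anti-OX40/CpG interval stood apart from the other 3 in each of these gates, and anti-PD-L1 and untreated overlapped, as did untreated and PDOX. *Wdr89* was at 12.4, 5.71, 21.1 and 9.48 in NK cells, 17.8, 20.6, 36.2 and 22.7 in B cells, and 9.38, 10.8, 21.5 and 11 in monocytes. Its anti-OX40/CpG interval stood apart from the other 3 in NK cells and monocytes, and in B cells it overlapped that of PDOX.

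*Gm10073* was at 2.33, 2.86, 6.09 and 0.632 in NK cells and at 2.87, 4.81, 8.88 and 2.87 in B cells, with all neighboring intervals overlapping in both gates. In NK cells the anti-OX40/CpG interval (4.26 to 8.43) lay above that of PDOX (0.0765 to 2.28). As ratios to untreated, anti-OX40/CpG was at 2.61 in NK cells (1.09 to 7.58) and 3.09 in B cells (1.25 to 7.72). In monocytes *Gm10073* was at 0.375, 2.57, 2.5 and 1.67, where the untreated value rests on 1 UMI and all neighboring intervals overlapped. The monocyte ratios were 6.86 in anti-PD-L1 (1.14 to 280) and 6.66 in anti-OX40/CpG (0.746 to 315). *Gm10263* gave 5 or fewer UMIs in every library of the NK, B and monocyte gates. It had 0 UMIs in the NK cells of untreated and anti-PD-L1, where the floor of 3 counts per library corresponds to levels of 1.17 and 2.86, and in the monocytes of PDOX, where the floor is 0.418. In monocytes the anti-OX40/CpG interval of *Gm10263* (level 2.5, 0.811 to 5.83, from 5 UMIs) lay above those of anti-PD-L1 (0.0208 to 0.619) and PDOX (0 to 0.514) and overlapped that of untreated. In NK and B cells all its intervals overlapped.

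The ratio of *Gm10076* in anti-OX40/CpG to untreated was 18.1 in NK cells (6.07 to 89.1), 11.3 in B cells (5.75 to 24.3) and 9.0 in monocytes (3.13 to 35.4). That of *Wdr89* was 1.70 in NK cells (1.15 to 2.59), 2.04 in B cells (1.38 to 2.99) and 2.29 in monocytes (1.37 to 3.92). The interval of the other gates overlapped that of T cells in 11 of 11 comparisons for anti-OX40/CpG, 10 of 11 for PDOX and 10 of 11 for anti-PD-L1. The 2 exceptions were *Gm10073* in PDOX monocytes, at 4.46 (0.660 to 191), and *Wdr89* in anti-PD-L1 NK cells, at 0.460 (0.157 to 1.11). These intervals are wide, the difference between gates itself was not tested, and counting overlaps was chosen after the values were seen.

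In the NK, B and monocyte gates every PDOX interval of the 4 genes that could be formed included 1. The *Gm10076* ratio in PDOX was 0.814 in NK cells (0.109 to 6.07), 0.614 in B cells (0.214 to 1.67) and 0.557 in monocytes (0.132 to 2.69). Each of these intervals included both 1 and the T-cell ratio of 0.238. The cells that entered no gate numbered 217, 311, 248 and 335, and *Gm10076* was at 5.42, 5.98, 41.0 and 1.22 UMIs per 10000 in them. Their PDOX ratios were 0.225 for *Gm10076* (0.170 to 0.296), 0.445 for *Gm10073* (0.345 to 0.572), 0.787 for *Gm10263* (0.319 to 2.0) and 0.841 for *Wdr89* (0.767 to 0.922). Neutrophil markers (*S100a8*, *S100a9* and *Retnlg* together) were at 62.1, 31.7, 14.8 and 117 UMIs per 10000 in these ungated cells. The monocyte check genes were at 134, 97.0, 40.9 and 69.9, and *Pf4*, *Ppbp* and *Gng11* of platelets at 2.16, 1.57, 0.0741 and 8.23. The part of this make-up in the ratios was not tested.

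Parents did not shift by the same amounts. In the T cells of the 4 libraries *Rpl41* was at 119, 144, 171 and 95.8 UMIs per 10000, *Rplp1* at 158, 165, 157 and 109, *Rps28* at 85.8, 84.6, 174 and 47.5, and *Rplp2* at 118, 130, 136 and 87.5. The anti-OX40/CpG ratio of the parent was 1.44 for *Rpl41* (1.41 to 1.47) beside 7.35 for *Gm10076*, and 0.998 for *Rplp1* (0.978 to 1.02) beside 3.0 for *Gm10073*. It was 2.03 for *Rps28* (1.98 to 2.09) beside 6.44 for *Gm10263*, and 1.16 for *Rplp2* (1.13 to 1.19) beside 2.32 for *Wdr89*. Each member exceeded its parent, with intervals that did not overlap. The members were chosen on such differences and the parents on sequence alone, so this gap is a description only. In PDOX the parents were at 0.806, 0.692, 0.554 and 0.744 of untreated, so *Gm10076* and *Gm10073* were lower relative to untreated than their parents and *Wdr89* was higher than its parent, while the interval of *Gm10263* included the ratio of *Rps28*. These values are over all T cells, and the parents differ within T-cell states, as given below. In the B gate the PDOX ratios of *Rpl41* (1.18), *Rplp1* (1.19) and *Rplp2* (1.20) had intervals above 1, and *Rps28* (0.925) did not. The PDOX ratio of the summed ribosomal protein genes was 1.15 in B cells, 1.26 in monocytes and 0.975 in NK cells.

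The UMIs of a member as a share of member plus parent UMIs compare member and parent directly. These shares do not depend on the denominator of the levels, but the same choice of members applies to them. For *Gm10076* with *Rpl41* in T cells the share was 4.50% in untreated (4.10 to 4.93), 5.31% in anti-PD-L1 (5.05 to 5.58), 19.4% in anti-OX40/CpG (19.0 to 19.8) and 1.37% in PDOX (1.20 to 1.55). For *Gm10073* with *Rplp1* it was 4.09% (3.76 to 4.45), 6.21% (5.95 to 6.48), 11.4% (11.1 to 11.7) and 2.44% (2.24 to 2.67). In both pairs all 4 libraries stood apart.

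For *Gm10263* with *Rps28* the share was 0.447% (0.302 to 0.637), 0.457% (0.357 to 0.577), 1.40% (1.28 to 1.53) and 0.569% (0.422 to 0.752), so anti-OX40/CpG alone stood apart. For *Wdr89* with *Rplp2* it was 18.8% (18.1 to 19.5), 19.96% (19.5 to 20.4), 31.7% (31.3 to 32.2) and 23.3% (22.7 to 23.9). In PDOX the *Wdr89* share was above untreated, while those of *Gm10076* and *Gm10073* were below it. How reads were divided between member and parent in the deposited counts was not tested, so each share is uncertain to that extent.

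The shares were also taken by cell class within each library. For this the T cells were divided into naive-type cells (1 or fewer UMIs of *S100a4*, *S100a6* and *Lgals1* together) and effector-type cells (5 or more), and into cells with UMIs of *Cd8a* or *Cd8b1* but not *Cd4* and the converse. In anti-OX40/CpG the *Gm10076* share was 19.2% in naive-type T cells, 20.1% in effector-type T cells, 21.2% in NK cells, 17.7% in B cells and 17.9% in monocytes. In PDOX these shares were 1.33%, 1.34%, 1.94%, 1.64% and 1.69%. The spread over classes was wider for the other genes in places: 0.971% to 3.19% for *Gm10263* in anti-OX40/CpG, 1.47% to 4.74% for *Gm10073* in PDOX, and 17.7% to 29.1% for *Wdr89* in untreated. The spread between classes was not tested against that between libraries. Over the 4 genes and 4 libraries, the interval of a class overlapped that of the T gate in 111 of 112 cases, counted over 7 classes of which 4 are subsets of the T gate. The exception was *Wdr89* in untreated NK cells, at 29.1% (20.8 to 38.5). Overlap of intervals is no test of equality, and this count was chosen after the values were seen.

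**Figure D2:**
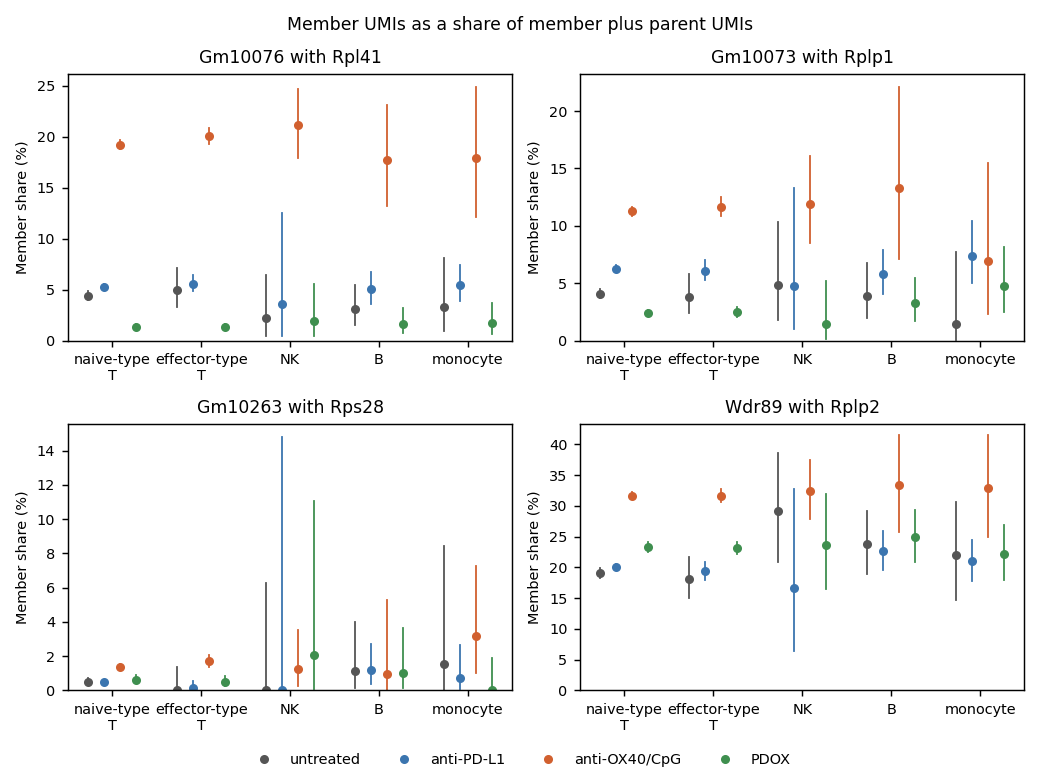
UMIs of each of the 4 genes as a percentage of its own plus its parent's UMIs, by cell class, with 1 point per library and exact Clopper-Pearson 95% intervals as lines. For *Gm10076* the anti-OX40/CpG library lies between 17.7% and 21.2% in the 5 classes drawn, and PDOX between 1.33% and 1.94%.

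Comparisons between cell classes within the libraries use none of the differences that chose the genes. UMIs were summed per library and class, sums of fewer than 10 cells were left out (NK cells of anti-PD-L1, B cells of anti-OX40/CpG and monocytes of untreated), and edgeR's quasi-likelihood test was fitted with library as a block, calling genes at a Benjamini-Hochberg adjusted p under 0.05. Fold changes are on the log2 scale with their standard error (SE). Of the 4 genes, 3 passed the filter on low counts in the comparison of gates, and *Gm10263* did not. The directions in which calls were counted were chosen after those of the 4 genes were seen.

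All 3 tested genes were called lower in NK than in T cells, where 16% of 1928 genes were called lower. By edgeR's quasi-likelihood test, *Gm10076* differed by -0.97 (SE 0.26, adjusted p 0.00591), *Gm10073* by -1.60 (SE 0.31, adjusted p 0.000254) and *Wdr89* by -1.37 (SE 0.19, adjusted p 2.73e-06), each lower in 3 of 3 libraries. Without the untreated library *Gm10076* was at -0.75 and no longer called (edgeR, adjusted p 0.0505), and without anti-OX40/CpG it was at -1.55. DESeq2's Wald test did not call it either (-0.95, Benjamini-Hochberg adjusted p 0.0515). All 3 were also called lower in monocytes than in T cells, where 27% of genes were. There the edgeR differences were -1.37 for *Gm10076* (SE 0.24, adjusted p 3.64e-05), -1.84 for *Gm10073* (SE 0.28, adjusted p 6.22e-06) and -1.39 for *Wdr89* (SE 0.18, adjusted p 3.95e-07), each in 3 of 3 libraries.

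Between B and T cells, *Gm10073* was called lower by edgeR (-0.82, SE 0.28, adjusted p 0.0275) and *Gm10076* (-0.41, SE 0.26, adjusted p 0.262) and *Wdr89* (-0.41, SE 0.17, adjusted p 0.0780) were not, beside 14.4% of genes called lower. *Gm10076* and *Gm10073* were lower in 2 of 3 libraries and *Wdr89* in 3 of 3. The *Gm10073* call did not hold without untreated (-0.70, edgeR adjusted p 0.113) or without anti-PD-L1 (-0.51, edgeR adjusted p 0.423), and *Wdr89* was called without PDOX (-0.62, edgeR adjusted p 0.0101). Neither DESeq2's Wald test nor edgeR without a library term called *Gm10073*, with values given under the processing. The B-cell calls also depended on the genes from which library sizes were normalized. With all genes in place of those passing the filter, *Gm10076* (-0.76, edgeR adjusted p 0.0376) and *Wdr89* (-0.80, edgeR adjusted p 0.00261) were called lower in B cells as well, the genes called lower rose from 277 to 570, and the median log2 fold change of all genes was -0.43 in place of -0.06. Platelet markers (*Pf4*, *Ppbp* and *Gng11* together) were at 6.01, 1.34, 0 and 49.4 UMIs per 10000 in the B gates of the 4 libraries, beside 0.777 or less in T cells, and their part in the B-cell values was not tested.

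The parents had negative fold changes in these gates too. In the same edgeR fit, *Rpl41* was at -1.09 in NK cells, -0.15 in B cells and -1.25 in monocytes, *Rplp1* at -1.65, -0.77 and -2.08, and *Rplp2* at -1.66, -0.66 and -1.48. Of the 82 ribosomal protein genes tested, 81 were called lower in NK cells and 79 in monocytes (with 1 higher), at median log2 fold changes of -1.41 and -1.27, beside medians over all genes of -0.15 and -0.20. In B cells 16 of 82 were called lower, a count that fell to 3 without untreated, 7 without anti-OX40/CpG and 1 without anti-PD-L1 and rose to 59 without PDOX. It was 36 without the 5% deepest cells and 68 with normalization from all genes. In the gates with calls for all 3 tested genes, *Gm10076*, *Gm10073* and *Wdr89* thus moved in the direction of the ribosomal protein genes.

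All 4 genes could be tested between T-cell states. In naive-type T cells *Gm10076* was at 5.62, 8.87, 48.2 and 1.79 UMIs per 10000 in the 4 libraries, and in effector-type T cells at 3.55, 5.05, 27.5 and 0.943. *Wdr89* was at 28.9, 37.4, 78.5 and 40.0 in naive-type and at 12.8, 15.0, 33.1 and 16.6 in effector-type cells. Each gene was lower in the effector-type cells of 4 of 4 libraries. *Gm10076*, *Gm10073* and *Wdr89* were called lower, beside 13.8% of 6870 genes. *Gm10263* was called lower too, at 0.435, 0.468, 3.15 and 0.497 in naive-type and 0, 0.0515, 1.32 and 0.123 in effector-type cells. It passed the filter on low counts through the naive-type sums, where it is higher, so nothing is read from its call. For *Gm10263* the untreated effector-type cells had 0 UMIs, with an upper limit of 0.467 above the naive-type level of 0.435, and those of anti-PD-L1 had 2 UMIs, so its direction in untreated is within counting error. The edgeR differences were -0.65 for *Gm10076* (SE 0.11, adjusted p 0.000105), -1.27 for *Gm10073* (SE 0.11, adjusted p 9.50e-09), -1.44 for *Gm10263* (SE 0.22, adjusted p 2.75e-05) and -1.09 for *Wdr89* (SE 0.09, adjusted p 7.32e-09).

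Without the anti-OX40/CpG library, which holds most of its UMIs, *Gm10263* was at -2.25. With T cells split on *Id2* UMIs instead, the edgeR differences were smaller and still called, at -0.36 for *Gm10076*, -0.64 for *Gm10073*, -0.63 for *Gm10263* and -0.53 for *Wdr89*. Of 83 ribosomal protein genes, 81 were called lower and 1 higher in effector-type cells, with a median of -0.99 beside -0.02 over all genes. Each member was close to its parent: *Rpl41* was at -0.73, *Rplp1* at -1.25, *Rps28* at -1.34 and *Rplp2* at -1.04. The difference between member and parent was not tested.

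Cells with *Cd8a* or *Cd8b1* were compared with *Cd4* cells in the same way. *Gm10073* was at 8.10, 12.1, 22.4 and 3.38 UMIs per 10000 in the *Cd8* cells of the 4 libraries, and at 4.33, 9.98, 17.3 and 1.94 in the *Cd4* cells. By edgeR's quasi-likelihood test 3 of the 4 genes were called higher in *Cd8* cells, beside 5.13% of 5714 genes: *Gm10076* by 0.42 (SE 0.08, adjusted p 0.00230), *Gm10073* by 0.60 (SE 0.10, adjusted p 0.000718) and *Wdr89* by 0.39 (SE 0.07, adjusted p 0.00152), each in 4 of 4 libraries. *Gm10263* was higher in 2 of 4 libraries and not called (0.53, SE 0.19, edgeR adjusted p 0.112). Leaving out each library in turn gave 0.25 to 0.65 for *Gm10263*, without a call. Without anti-OX40/CpG, *Gm10076* was at 0.43 and not called (edgeR adjusted p 0.0572). Of 83 ribosomal protein genes, 81 were called higher, with a median of 0.38. The genes that split the T-cell states (*S100a4*, *S100a6* and *Lgals1* together) also differed between these classes, at 6.17, 26.0, 30.0 and 55.5 UMIs per 10000 in *Cd8* cells and 22.5, 11.1, 44.2 and 79.4 in *Cd4* cells. They were lower in the *Cd8* cells of 3 of 4 libraries, and the comparison was not repeated within a state.

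The share of T cells in the effector-type state itself differed between libraries, at 5.84% in untreated (3.97 to 8.23), 10.7% in anti-PD-L1 (8.92 to 12.8), 22.3% in anti-OX40/CpG (20.01 to 24.7) and 43.2% in PDOX (40.2 to 46.2). The library differences were therefore taken again within each state, a step chosen after values were seen. For *Gm10076* the PDOX ratio was 0.319 in naive-type (0.256 to 0.395) and 0.266 in effector-type cells (0.173 to 0.422), beside 0.238 in all T cells. For *Gm10073* it was 0.616 in naive-type (0.528 to 0.718) and 0.563 in effector-type cells (0.355 to 0.936), nearer to 1 than the 0.406 of all T cells.

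*Wdr89* was above untreated in PDOX within both states, at 1.38 in naive-type (1.30 to 1.47) and 1.30 in effector-type cells (1.06 to 1.60), although the ratio over all T cells was 0.977. It was 0.910 in *Cd8* cells (0.847 to 0.979) and 1.10 in *Cd4* cells (0.956 to 1.26). *Gm10263* was at 1.14 in naive-type cells (0.659 to 2.0), and it had 0 UMIs in the 30 effector-type cells of untreated. The PDOX ratio of the summed ribosomal protein genes was 0.731 in all T cells, 1.04 in naive-type cells (1.04 to 1.05) and 0.974 in effector-type cells (0.962 to 0.985), nearer to 1 within each state and, unlike *Wdr89*, below it in effector-type cells. The parents *Rpl41*, *Rplp1*, *Rps28* and *Rplp2* were at 1.08, 1.06, 0.872 and 1.07 in naive-type cells and at 1.02, 0.886, 0.729 and 0.954 in effector-type cells. *Gm10076* and *Gm10073* were below their parents in both states, with intervals that overlapped only for *Gm10073* and *Rplp1* in effector-type cells. The anti-OX40/CpG ratios of *Gm10076* were 8.57 in naive-type and 7.76 in effector-type cells, and those of *Wdr89* 2.71 and 2.59. In each of the 4 T-cell subsets, all 4 genes were highest in anti-OX40/CpG.

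Hemoglobin UMIs, the sign of red cells or their free RNA, also differed between the T cells of the libraries, at 6.49, 1.14, 39.5 and 1.42 per 10000. In anti-OX40/CpG, 7580 of the 8311 UMIs came from 1 cell. Without the 5 T cells richest in hemoglobin the counts were 479, 195, 714 and 232. The part of such RNA in the levels of the 4 genes was not tested. Without the 5% of cells with most UMIs in each library, the anti-OX40/CpG ratios were 7.36 for *Gm10076*, 3.06 for *Gm10073*, 7.12 for *Gm10263* and 2.36 for *Wdr89*.

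Counted by cell, 53.1% of untreated T cells had at least 1 *Gm10076* UMI, 67.3% of anti-PD-L1, 95.1% of anti-OX40/CpG and 19.1% of PDOX T cells. Median depths in these cells were 1472, 1622, 1575 and 1549 UMIs of other genes. After the T cells with at least 1500 UMIs of any gene (440, 919, 1081 and 878) were thinned to 1500, the shares were 33.2%, 46.4%, 93.7% and 10.6%, in the same order of libraries. Thinning matched total UMIs, of which the ribosomal protein genes take a different part in each library. Before thinning the shares were 58.2%, 77.9%, 84.6% and 33.6% for *Gm10073*, 5.84%, 6.51%, 31.4% and 4.22% for *Gm10263*, and 91.6%, 96.1%, 98.0% and 91.4% for *Wdr89*. For *Gm10073* the thinned shares were 42.0%, 56.6%, 75.7% and 19.8%, for *Gm10263* 2.73%, 3.81%, 16.4% and 2.73%, and for *Wdr89* 86.4%, 91.2%, 98.2% and 88.0%, so untreated was no longer above PDOX for *Gm10263* and *Wdr89*. No cell type is known to lack these transcripts, so a background share from free RNA cannot be given. The highest count of *Gm10076* in a single cell was 44 in anti-OX40/CpG and 4 in PDOX.

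The ribosomal protein genes as a list give the setting for these parents. In T cells 83 of the 86 had at least 50 UMIs in each comparison. Their median ratio to untreated was 0.990 in anti-PD-L1, 0.926 in anti-OX40/CpG and 0.737 in PDOX, beside 0.974, 0.971 and 0.980 over all genes with enough UMIs. The PDOX value is over all T cells, and within T-cell states the summed genes were at 1.04 and 0.974, as given above. In anti-OX40/CpG 12 of the 83 were above a ratio of 1.5 and 1 below 1/1.5, and in PDOX 1 was above and 16 below. Taking all UMIs as the denominator moved the PDOX median of all genes by 0.20 on the log2 scale, to 1.12, and that of the ribosomal protein genes to 0.844. Relative to all genes, their median was 0.752 with either denominator.

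The 3 ribosomal protein genes with the highest PDOX ratio were *Rps27l* (2.01), *Rpl27* (1.02) and *Rpl36al* (1.02), and the 3 lowest were *Rpl6l* (0.285), *Rps29* (0.411) and *Rpl35* (0.524). *Rps29* and *Rpl35* resembled *Gm10076* and *Gm10073* in being above untreated in anti-OX40/CpG, at 1.65 and 1.96, and below it in PDOX. *Rpl6l* was below untreated in both, at 0.248 in anti-OX40/CpG. The list was made by symbol, and which of its genes are copies of others was not examined. No coding length was found for *Rpl6l*. *Rps27rt* had the highest anti-OX40/CpG ratio of the list, at 4.16, and was at 0.823 in PDOX.

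After these values were seen, the ratio of each ribosomal protein gene was set against the length of its coding sequence. Lengths were those of the Ensembl canonical transcript in GENCODE M39, found for 82 of the 83 genes, which for *Rpl41* has 141 coding bases, more than the 78 of the transcript aligned to *Gm10076*. Those of *Rpl37a* and *Rpl39* have 429 and 240 coding bases. GENCODE lists other coding transcripts for both genes, and rho was not recomputed with them. The lengths of the other genes were also used as given, such as 288 bases for *Rps29*, and were not checked. Across genes, Spearman's rho between length and ratio was -0.85 in anti-PD-L1, -0.90 in anti-OX40/CpG and 0.07 in PDOX. With the GC content of the coding sequence it was -0.10, 0.01 and 0.11. Genes are not independent replicates, all points of a comparison share the same pair of libraries, and no p-value is given. The 41 shorter genes had a median anti-OX40/CpG ratio of 1.12 and the 41 longer ones 0.864. The parents of *Gm10076* and *Gm10263*, *Rpl41* and *Rps28*, are among the shortest, and those of *Gm10073* and *Wdr89*, *Rplp1* and *Rplp2*, have 345 and 348 coding bases, below the median of 457.5.

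**Figure D3:**
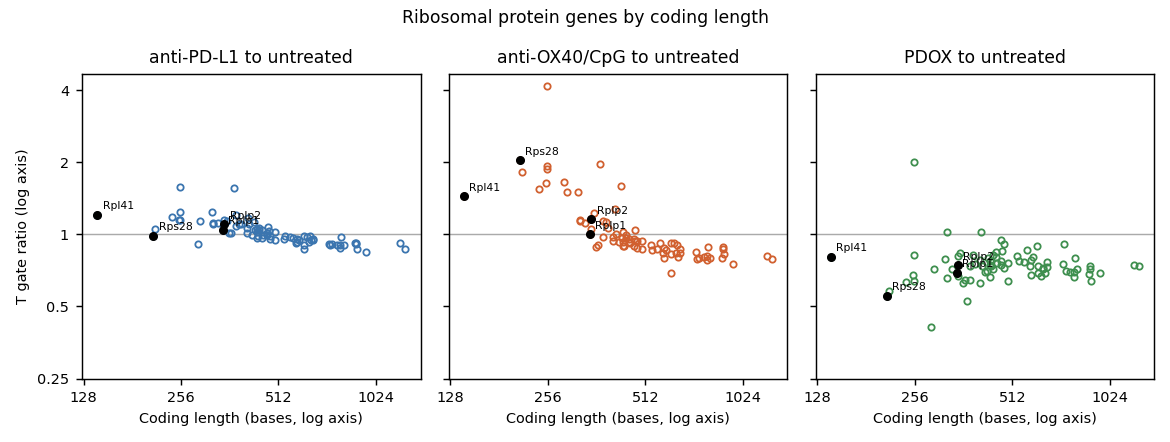
Ratio of each ribosomal protein gene to untreated in the T gate (log axis) against the length of its coding sequence in bases (log axis), with 1 panel per treated library and 1 point per gene; filled points are the parents *Rpl41*, *Rps28*, *Rplp1* and *Rplp2*. Shorter genes have higher ratios in anti-PD-L1 and anti-OX40/CpG (Spearman's rho -0.85 and -0.90), and in PDOX rho is 0.07.

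Other predicted genes, with symbols of the form Gm and a number, and ribosomal pseudogenes form a further comparison list. It was made by symbol, and which predicted genes in it are ribosomal copies was not examined. The list has 5637 genes without the 4 described here. In anti-OX40/CpG 103 of them had enough UMIs, of which 23 were above a ratio of 1.5 (22.3%, beside 7.61% of all genes) and 39 below 1/1.5 (37.9%, beside 7.96%), with a median of 0.788. In PDOX 4 of 88 were above and 41 below, with a median of 0.695, and in anti-PD-L1 14 of 99 were above and 24 below, with a median of 0.947. Of 87 with enough UMIs in both comparisons, 3 were above 1.5 in anti-OX40/CpG and below 1/1.5 in PDOX, as *Gm10076* and *Gm10073* were, a count chosen after the values were seen. These were *Rpl36-ps3* (6.60 and 0.317), *Rps26-ps1* (3.55 and 0.457) and *Gm10260* (1.72 and 0.545). The same held for 6 of 83 ribosomal protein genes and for 22 of 6057 genes in all. The floor of 50 UMIs in untreated and PDOX together is harder to pass for a gene that is low in PDOX. Listed genes below that floor with ratios on the same sides were *Gm28727* (3.68 and 0.288), *Gm10269* (2.29 and 0.288) and *Gm7808* (2.22 and 0.402). Among the 88 genes with at least 50 UMIs in untreated and PDOX together, the highest PDOX ratios were those of *Gm26740* (2.14), *Gm37387* (1.55) and *Gm5547* (1.55), and the lowest those of *Gm15013* (0.163), *Gm10116* (0.208) and *Gm5786* (0.229). The last 3 were also below untreated in anti-OX40/CpG, at 0.198, 0.167 and 0.240.

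Likeness to each of the 4 genes was measured as Pearson's r of log2 levels over the 16 profiles of library and gate, each centered on the mean of its gate, among 5766 genes. Profiles of a library share its cells' source and depth, and r is given as a description. The genes most like *Gm10076* were *Rpl38* (0.96), *Rps26-ps1* (0.94) and its parent *Rpl41* (0.93). For *Gm10073* they were *Erdr1*, *Rpl39* and *Rps27* (0.88, 0.88 and 0.87), and its parent *Rplp1* was at 0.405. For *Gm10263* they were *Ankfy1* (0.87), *Klrb1c* (0.80) and *Rps26-ps1* (0.79), with *Rps28* at 0.74, and its profiles outside T cells hold 5 or fewer UMIs. *Klrb1c* is a marker of the NK gate, at 0.138 UMIs per 10000 or less in T cells, so nothing is read from its r. For *Wdr89* they were *Rps27rt* (0.96), *Rpl37a* (0.86) and *Rpl41* (0.85), with *Rplp2* at 0.77. Among the 4 genes themselves, r ranged from 0.34 for *Gm10073* with *Gm10263* to 0.82 for *Gm10076* with *Gm10073*.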

How the data were processed

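The deposited files hold raw UMI counts per gene and cell, which the authors made from 10x Chromium 3′ libraries with Cell Ranger on mm10; the annotation was not stated. The 4 genes and the gene lists were chosen with earlier results of these data known. Counts were read in Python 3.11.15, and intervals computed with SciPy 1.17.1. Cells with 200 or more genes outside mitochondrial, ribosomal protein and hemoglobin genes were kept. T, B and monocyte gates needed 2 or more UMIs of their markers and the NK gate 3 or more, with none or few of the other gates' markers. *Trac*, *Trbc2*, *Ighm* and *Igkc*, planned as check genes, are not among the symbols counted. Parents were found with blastn 2.17.0 in GENCODE M39, an annotation of another build from which no coordinates were taken; positions are from RefSeq on mm10.

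UMIs summed per library and class were tested with edgeR 4.0.16 in R 4.3.3 (TMM and library sizes from genes other than mitochondrial, ribosomal protein and hemoglobin genes, filterByExpr, quasi-likelihood test, library block, Benjamini-Hochberg over all genes tested). TMM was first computed from all genes. After those first results and a check on simulated counts had been seen, it was restricted to the genes passing filterByExpr, and the first version is kept as an alternative. Alternatives covered normalization (DESeq2 1.42.0 size factors), tool, filters, denominators, depth, gates and each library left out. Genes named are the 4 genes, their parents, the gate, check and split genes, the 3 genes most like each by Pearson's r (mean of at least 10 UMIs, pseudocount 0.5), and the 3 highest and 3 lowest PDOX ratios of each list; after the values were seen, genes of the predicted list above 1.5 in anti-OX40/CpG and below 1/1.5 in PDOX were added.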

Additional observations from a re-analysis of the deposited data

How the results depend on the processing

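All 195 alternative values of the 17 log2 fold changes of the 4 genes between cell classes kept their sign, and 130 of 131 alternative anti-OX40/CpG ratios over the 4 gates were above 1, the exception being *Gm10263* in B cells thinned to 1500 UMIs, at 0. In T cells the PDOX ratio moved beyond its interval for *Gm10076* with ribosomal protein UMIs as denominator (0.325), for *Gm10073* with all UMIs (0.465) or ribosomal protein UMIs (0.556), and for *Wdr89* with the same denominators (1.12 and 1.34). The median ratio of all genes in PDOX passed to the other side of 1 with at least 200 UMIs per gene (1.01) and with all UMIs as denominator (1.12). List medians moved to 0.844 (ribosomal protein genes, PDOX, all UMIs), 0.796 (predicted genes, PDOX, all UMIs) and 1.08 (predicted genes, anti-PD-L1, at least 200 UMIs). Without a library term, calls were lost for *Gm10076* in NK cells (-0.59) and monocytes (-1.73), *Gm10073* in NK (-1.49) and B cells (-1.38), *Gm10076*, *Gm10073* and *Gm10263* in effector-type cells (-0.62, -1.19 and -1.18) and *Gm10076*, *Gm10073* and *Wdr89* in *Cd8* cells (0.40, 0.50 and 0.39), and 85 genes were called there in place of 442. DESeq2's Wald test did not call *Gm10076* in NK cells (-0.95, adjusted p 0.0515; 0.000950 to 0.740 over its alternatives) or *Gm10073* in B cells (-0.73, adjusted p 0.116; 0.00109 to 0.423). *Wdr89* in B cells was called without the deepest 5% of cells (-0.46), and *Gm10076* and *Wdr89* in B cells with TMM from all genes (-0.76 and -0.80), the setting used first and replaced after its results had been seen. Leaving out each library in turn gave ranges of -1.55 to -0.75 for *Gm10076* in NK cells, -1.20 to -0.51 for *Gm10073* and -0.62 to -0.29 for *Wdr89* in B cells, and 0.39 to 0.45 for *Gm10076* in *Cd8* cells. Genes called then ranged from 316 to 593 for B cells, 531 to 1064 for monocytes, 1180 to 2075 for effector-type cells and 269 to 412 for *Cd8* cells. Other counts outside 1.5 times were 1788 for monocytes with no filter, and 710 (split on *Id2*) and 1073 (thinned) for effector-type cells. The cause was not tested. No paired analysis was possible because each group has 1 library; classes within a library were compared with library as a block.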

Other observations

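Several limits apply to these values. With 1 library per group, a difference between libraries cannot be told apart from one between mice or treatments. The NK, B and monocyte gates hold between 5 and 55 cells per library, so intervals there are wide, and *Gm10263* did not pass the filter for a test in them. The members and parents share stretches of up to 225 identical bases, and neither the reads nor the annotation behind the counts were analysed here. Gates and T-cell states rest on few marker genes, and the share of cells in each state differs between libraries.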
